A study of Homo sapiens with 6 samples.

Results

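miR-483 is a microRNA whose gene lies inside IGF2, the gene of an insulin-like growth factor, and its hairpin gives mature miRNAs from both arms, hsa-miR-483-3p and hsa-miR-483-5p, called miR-483-3p and miR-483-5p here. Both were taken by name from the miRNA probes of the arrays, 2 of 2565 probes, and were picked because of their values in TGF-β-treated against control cells. Those values are therefore given as a description without a test. RNA came from Panc-1, an established human cell line from a pancreatic ductal adenocarcinoma. Treatment lasted 72 h, with TGF-β at 10 ng/mL in the TGF-β group and at 0 ng/mL in the control group, and each group had 3 arrays. TGF-β is a secreted cytokine that drives epithelial-mesenchymal transition, the change the treatment was meant to induce. The arrays were of the 1-colour kind, and among the 3200 spots of each there was 1 for every miRNA probe and 320 that were blank.

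A microRNA hairpin is cut into a duplex of a 5p and a 3p strand, and each strand can be loaded into Argonaute and pair with target RNAs through its seed, bases 2 to 8. IGF2 is an imprinted gene that is mainly expressed from the paternal allele, and its neighbour H19, a non-coding RNA that holds miR-675, is expressed from the maternal one. miR-483-3p has been described as a repressor of SMAD4, the partner that receptor-activated SMAD proteins need in TGF-β signalling.

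In the RefSeq annotation of GRCh38.p14, MIR483 lies on chromosome 11 from 2134134 to 2134209, a hairpin of 76 bp. It is inside the interval of IGF2 (2129117 to 2149566) and of the readthrough gene INS-IGF2 (2129117 to 2161209), and is known as an intronic miRNA. The array files carry no coordinates. Within 1 Mb of MIR483 the annotation has 5 other miRNA genes, and all 5 had probes, for 7 mature miRNAs. Their sequences, from RefSeq for the same build, are given because their values are set beside those of miR-483 as a view of the locus. Capitals mark the seed, and the 7 seeds were all different.
miR-4686: uAUCUGCUgggcuuucugguguu
miR-675-5p: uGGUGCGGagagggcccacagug
miR-675-3p: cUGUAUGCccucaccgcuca
miR-7847-3p: cGUGGAGGacgaggaggaggc
miR-4298: cUGGGACAggaggaggaggcag
miR-6744-5p: uGGAUGACaguggaggccu
miR-6744-3p: gGGCCUCUcuugucauccugcag
MIR4686 is the closest, at 2173063 to 2173138 and 38854 bp from MIR483, and MIR675 is inside H19 at 1996759 to 1996831, 137303 bp away.

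The 5 miRNAs whose pattern over the arrays was most like that of miR-483-3p are described further on, and their seeds, again in capitals, also all differed.
miR-519a-3p: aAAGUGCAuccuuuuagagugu
miR-181b-3p: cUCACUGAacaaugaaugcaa
miR-181b-5p: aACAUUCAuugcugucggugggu
miR-181a-2-3p: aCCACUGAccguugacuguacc
miR-2355-3p: aUUGUCCUugcuguuuggagau

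The label of the cells was checked against marker miRNAs. The 4 miRNAs listed for epithelial tumour lines, miR-21-5p, miR-31-5p, miR-221-3p and miR-222-3p, are also expressed by mesenchymal cells and so do not mark epithelial cells alone. They were detected on all 6 arrays, with signals of 18373 to 25471 intensity units for miR-21-5p. limma called 0 of these 4, compared with 3.98% of the 1457 tested miRNAs (those detected on all arrays of at least 1 group). An unadjusted p under 0.05 by limma was found for 1 of the 4, miR-31-5p, and for 202, or 13.9%, of the 1457. By the methods' t-test 2 of the 4 had an unadjusted p under 0.05 and 0 after adjustment, compared with 194 and 17 of all tested miRNAs. The difference of miR-31-5p was 0.32 (limma adjusted p = 0.0631), and limma called it in 4 of 21 alternatives. These were median scaling (0.55, adjusted p = 0.00563), 75th percentile scaling (0.51, adjusted p = 0.00196), the replicate number as a block (adjusted p = 0.0341) and limma's robust fit (adjusted p = 0.0316). Without TGF-β replicate 3 the difference was 0.21, and with the local background at an offset of 0 it was 0.03 (limma adjusted p = 0.998). The miR-200 family, which is typical of epithelial cells, was not in the list and was looked at after its values were seen. In this family miR-200a-3p and miR-200b-3p were detected on all 6 arrays, miR-429 on 3, miR-200c-3p on 1 and miR-141-3p on 0. Detection alone does not give a level: the mean log2 value over the arrays was 2.52 for miR-200a-3p and 14.3 for miR-21-5p. Of the islet markers, miR-375 was detected on 1 array only, while miR-7-5p was detected on all arrays at 285 to 534 units. The hepatocyte miRNA miR-122-5p was detected on 3 arrays, with its excess over the blank spots between -0.0181 and 3.04 units, and the 3 blood miRNAs together had an excess of 3.07 to 6.90 units. Of these markers miR-7-5p, miR-451a and miR-223-3p were tested, with 0 called by limma and 0 at an unadjusted p under 0.05 by limma or the methods' t-test. Of the 4 muscle miRNAs, limma called 3 lower in TGF-β-treated cells, compared with 20, or 1.37%, of the 1457: miR-1-3p by -1.51 on the log2 scale (adjusted p = 4.15e-06), miR-133a-3p by -1.47 (adjusted p = 3.59e-05) and miR-133b by -1.48 (adjusted p = 2.44e-06). By the methods' t-test 3 of the 4 had an unadjusted p under 0.05 and 2 after adjustment, compared with 194 and 17 of all tested miRNAs. With the local background in place of the blank spots limma called none of the 3. The value of miR-1-3p was then above 0, at 0.16 or 0.37 by offset (limma adjusted p = 0.99 and 0.992). Those of miR-133a-3p and miR-133b stayed below 0, at -0.42 and -0.50 with an offset of 50 and at -0.78 and -0.94 with an offset of 0. The value of miR-206 was 0.045 (adjusted p = 0.982). The summed excess of the 4 was 580, 660 and 825 units in the controls and 231, 284 and 234 after TGF-β, and all 4 were detected on every array. The part of these muscle miRNAs in the values of miR-483 was not tested.

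miR-483-3p was close to the detection limit in control cells and well above it in TGF-β-treated cells. A spot counted as detected when its signal was above the mean of the blank spots by 2 of their SDs, which set limits of 19.5, 20.4 and 22.8 units on control arrays 1, 2 and 3 and of 20.7, 19.8 and 22.2 units on TGF-β arrays 1, 2 and 3. The signal of miR-483-3p was 20.1, 21.9 and 24.6 units on the control arrays. On the TGF-β arrays it was 27.5, 26.5 and 28.9 units. All 6 signals were above the limit of their array, and every TGF-β signal was above every control signal.

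The arrays differed in their blank level, which was 18.2, 19.1 and 21.3 units in the controls and 19.4, 18.8 and 20.9 units after TGF-β. After this level was subtracted, the excess of miR-483-3p was 1.88, 2.81 and 3.33 units in control cells, or 2.67 ± 0.733 (SD, n = 3). In TGF-β-treated cells it was 8.05, 7.75 and 7.98 units, or 7.93 ± 0.159 (SD, n = 3), 2.97 times the control mean. A gap of 4.42 units separated the lowest TGF-β array from the highest control array, control 3. The SD of the TGF-β arrays was below that of the blank spots within each of them, 0.528 to 0.679 units. Their closeness is therefore not read as precision. In SDs of the blank spots, the excess was 2.88, 4.52 and 4.33 in the controls and 12.3, 14.7 and 11.8 after TGF-β. Control array 1 was the nearest to the limit of 2 SDs.

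miR-483-5p was detected on all 6 arrays, with less separation between the groups. Its signal was 22.1, 25.8 and 27.1 units in the controls and 26.2, 27.4 and 28.8 units after TGF-β, so that control 3 was above TGF-β array 1. Its excess over the blank level was 3.83, 6.69 and 5.81 units in control cells, or 5.44 ± 1.46 (SD, n = 3), and 6.80, 8.58 and 7.89 units in TGF-β-treated cells, or 7.76 ± 0.900 (SD, n = 3). The ratio of the means was 1.42. The lowest TGF-β array, 1, was 0.107 units above the highest control array, 2, which is less than the SD of either group. In SDs of the blank spots the excess was 5.88, 10.8 and 7.57 in the controls and 10.4, 16.2 and 11.6 after TGF-β, and on this scale the groups overlapped.

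**Figure D1:**
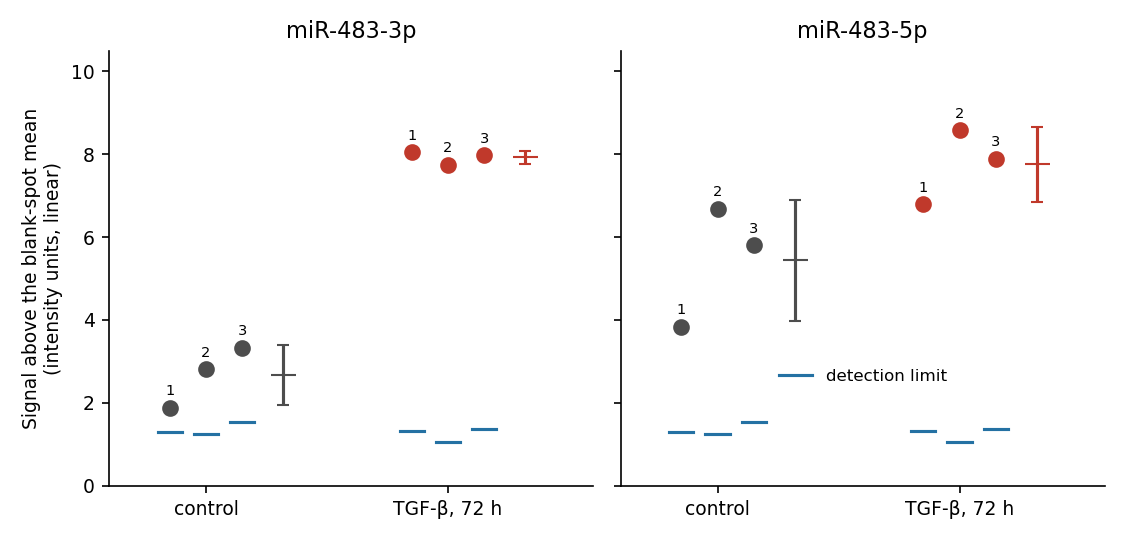
Signal above the mean of the blank spots for miR-483-3p (left) and miR-483-5p (right), in intensity units on a linear scale. Points are single arrays with their replicate number, horizontal marks with bars are mean ± SD of 3 arrays, and blue lines are the detection limit of each array. The TGF-β arrays of miR-483-3p sit between 7.75 and 8.05 units, all above the control arrays, while for miR-483-5p TGF-β array 1 is only 0.107 units above control 2.

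For the comparison of the groups, the excess was set to at least 1 unit, taken to the log2 scale and quantile normalized between arrays. On that scale miR-483-3p was at 1.10, 1.56 and 1.55 in the controls and 3.12, 2.88 and 2.98 after TGF-β. The difference of the means was 1.59 (standard error 0.196), a fold of 3.01, compared with an SD within groups of 0.206. miR-483-5p was at 2.08, 2.82 and 2.29 in the controls and 2.88, 3.03 and 2.96 after TGF-β. Its difference was 0.56 (standard error 0.200), a fold of 1.47, and its SD within groups was 0.277, with control 2 just 0.06 below the lowest TGF-β array. On this scale both arms, 2 of 2 members, had groups that did not overlap, with TGF-β higher, and so did 8.79% of the 1457 tested miRNAs, those above the limit on all arrays of the control group, of the TGF-β group or of both. Because the arms were picked on this comparison, nothing is read from that count.

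Over the 1457 miRNAs the median difference was -0.01, and the 5th and 95th percentiles were -0.48 and 0.59. A difference above that of miR-483-3p was measured for 2 miRNAs, miR-181a-2-3p and miR-2355-3p, and above that of miR-483-5p for 81. The difference of the 5p arm was thus inside the central range of all miRNAs and that of the 3p arm outside it.

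The values that the authors deposited, in which the blank level is subtracted and each array is scaled so that the median of its detected miRNAs is 25, put both arms on another scale. miR-483-3p had deposited values of 8, 12 and 11 for control cells against 34, 37 and 31 with TGF-β, means of 10.3 ± 2.08 and 34.0 ± 3.00 (SD, n = 3) with a ratio of 3.29. For miR-483-5p they were 16, 29 and 20 against 28, 41 and 31, means of 21.7 ± 6.66 and 33.3 ± 6.81 (SD, n = 3) with a ratio of 1.54. For the 3p arm the lowest TGF-β value, 31, was above the highest control value, 12. For the 5p arm TGF-β array 1, at 28, was below control 2, at 29.

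The size of both differences depended on how the background was treated. With the local background around each spot removed by limma's normexp method at an offset of 50, the differences of miR-483-3p and miR-483-5p were 0.04 and 0.02. With no background correction they were 0.31 and 0.13. All log2 differences given with the local background come from normexp, which fits a model and adds the offset to every value. They thus differ from the reported values in both the background and the way it was removed. The part of each was not tested. The local background was not independent of the spot. Over the miRNA probes of an array its rank correlation with the signal, across probes that are not independent replicates, was 0.795 to 0.874, and its median was 13.0 to 17.9 units around the dimmest 10% of probes but 101 to 193 units around the brightest 10%. At the spot of miR-483-3p the local background was 19.1, 16.2 and 17.5 units in the controls and 22.8, 15.8 and 18.1 after TGF-β. At that of miR-483-5p it was 23.7, 17.2 and 17.6 units in the controls and 23.2, 16.4 and 17.5 after TGF-β. Array 1 of each group had the highest local background at both spots. The signal of miR-483-3p minus its local background was 1.05, 5.76 and 7.09 units in the controls and 4.70, 10.7 and 10.7 after TGF-β, and that of miR-483-5p was -1.59, 8.59 and 9.50 units in the controls and 2.99, 10.9 and 11.2 after TGF-β. With this plain subtraction the groups overlapped for both arms, with TGF-β array 1 below controls 2 and 3. On the normexp scale at an offset of 50, after normalization, miR-483-3p was at 6.23, 6.25 and 6.21 in the controls and 6.27, 6.27 and 6.26 after TGF-β, which did not overlap, and the groups of miR-483-5p overlapped. An offset of 0 also left the groups of miR-483-3p apart and those of miR-483-5p overlapping.

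**Figure D2:**
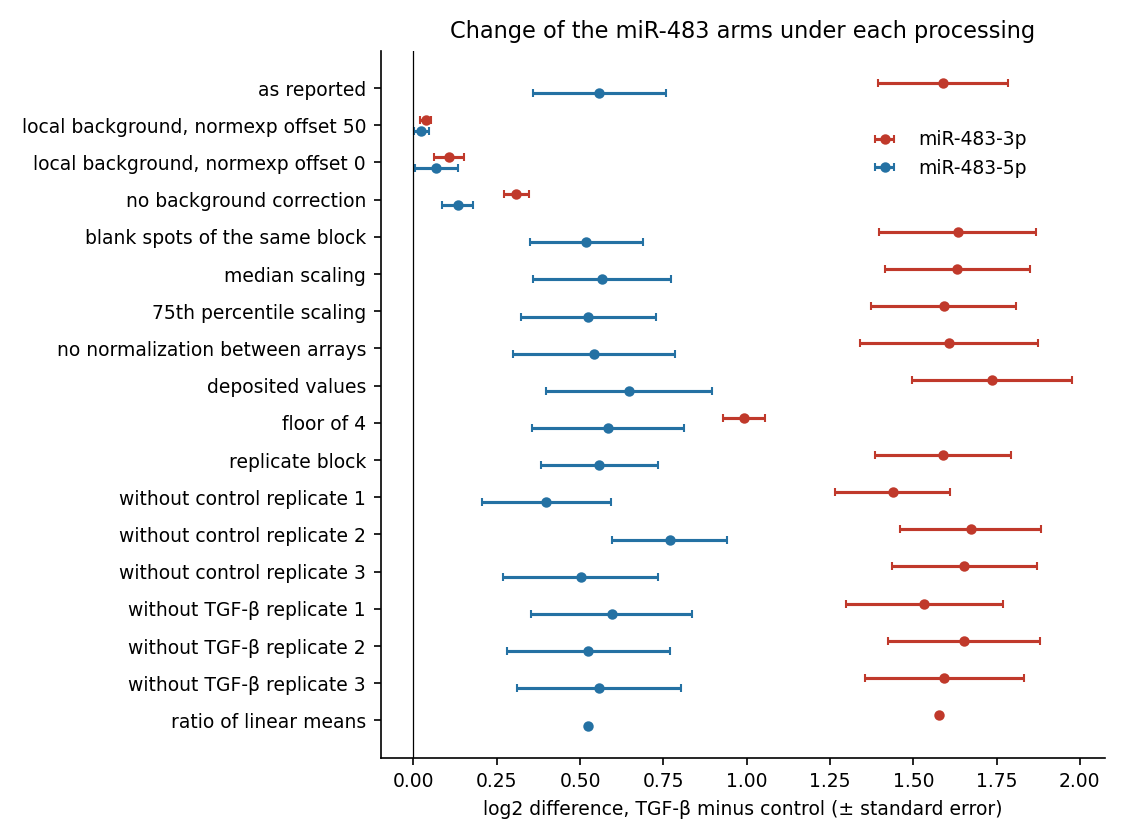
Difference between TGF-β and control cells on the log2 scale for both miR-483 arms under each way of processing the arrays, with bars for ± the standard error from limma (none for the ratio of linear means). Both differences are above 0 in each setting. Those with the local background and normexp, 0.04 and 0.02 at an offset of 50, are a small part of the reported 1.59 and 0.56.

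The log2 difference between the groups was larger for the 3p than for the 5p arm, by an amount that depended on the background. Probes differ in brightness for the same amount of RNA, so the difference between the arms was followed within each array and only its change was compared. On the log2 scale the 3p probe minus the 5p probe was -0.98, -1.27 and -0.74 in the controls and 0.23, -0.15 and 0.02 after TGF-β. The means were -0.995 ± 0.262 and 0.04 ± 0.189 (SD, n = 3), and the change of the difference was 1.03 with a standard error of 0.187 from the spread of the 6 within-array values. All 3 TGF-β arrays were above all 3 control arrays, with a gap of 0.60 between control 3 and TGF-β array 2. With a floor of 4 units in place of 1 the change of the difference was 0.41, because all control values of the 3p arm were below that floor. Without background correction it was 0.18, and with the local background it was 0.014 at an offset of 50 and 0.038 at an offset of 0, less than the standard error of the 5p arm's own difference there (0.0228 and 0.0646).

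Of the hairpins with a probe for each arm, 382 had both arms among the tested miRNAs. The change of the 3p minus the 5p arm of miR-483 had rank 4 of 382 from the top. The other 381 had a median of 0.003, with 5th and 95th percentiles of -0.55 and 0.60. The 3 above it, named after their values were seen, were miR-4655 (1.45), miR-512 (1.12) and miR-6753 (1.08). Counted by size in either direction, 6 of the 381 were larger, the other 3 being miR-659 (-1.28), miR-296 (-1.11) and miR-579 (-1.08). In each of the 3 above it the 5p arm had a difference below 0, at -0.06, -0.23 and -0.14, while both arms of miR-483 were above 0, as were both arms of 111 of the 381. The rank depended on the treatment of dim probes. With a floor of 4 the changes of miR-4655, miR-512 and miR-6753 were 0.06, 0.17 and 0.20 and miR-483 had rank 9 at 0.41. Without background correction they were 0.178, 0.134 and 0.174, and miR-483 had rank 31 at 0.176. With the local background at an offset of 50 they were 0.080, 0.001 and -0.070, and miR-483 had rank 167 at 0.014. These values come from the comparison on which miR-483 was picked and are a description.

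**Figure D3:**
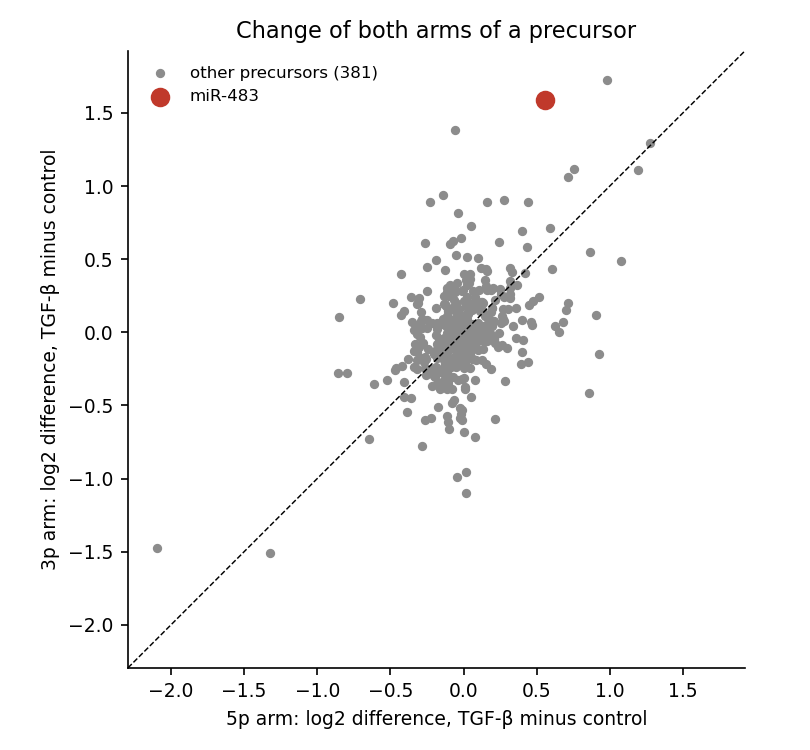
Difference between TGF-β and control cells on the log2 scale for the 5p arm (horizontal) and the 3p arm (vertical) of 382 hairpins with both arms tested. Each grey point is 1 hairpin, the dashed line marks equal change, and miR-483 (red) lies above that line at 0.56 and 1.59.

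The other miRNAs of the locus were measured on the same arrays, and none of the 7 was called. All 7 were detected on every array. The differences ran from -0.29 to 0.27 with a median of -0.08, compared with -0.01 for all tested miRNAs. limma called 0 of 7 at an adjusted p under 0.05 (lowest adjusted p = 0.68), and 0 had an unadjusted p under 0.05 by limma or by the methods' t-test. Over all tested miRNAs limma called 58, or 3.98%, of which 38 were higher (2.61%) and 20 lower (1.37%). An unadjusted p under 0.05 was found for 202, or 13.9%, of them by limma and for 194 by the methods' t-test.

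miR-4686, from the gene nearest to MIR483, had signals of 21.6, 22.9 and 28.5 units in the controls and 23.6, 22.2 and 26.3 after TGF-β, and its difference was -0.08 (standard error 0.254, limma adjusted p = 0.952). It was above 0 in 5 of 21 alternatives, among them without control replicate 3 (0.13) and without TGF-β replicate 2 (0.14). miR-675-5p, from H19, had signals of 52.7, 57.4 and 98.4 units in the controls and 61.8, 69.3 and 62.6 after TGF-β. Its groups overlapped, with control 3 the highest array, and its difference was -0.11 (standard error 0.185, limma adjusted p = 0.87). That sign rested on control 3, since without it the difference was 0.14, and it was also above 0 with the deposited values (0.06) and with the local background at an offset of 0 (0.08). The other strand, miR-675-3p, was near the detection limit, with a difference of 0.27 (standard error 0.301, limma adjusted p = 0.783). A p that misses the threshold does not show that these miRNAs were equal in both groups.

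Other miRNAs of imprinted transcripts were a second point of reference for miR-483. Of the 7 in this list, which includes both strands of miR-675, limma called 0, compared with 3.98% of the 1457, and the median difference was 0.02. By the methods' t-test 0 had an unadjusted p under 0.05, compared with 194 of all tested miRNAs. By limma 2 did, compared with 13.9% of the 1457. These 2 were miR-296-3p, from the GNAS locus, with a difference of -1.10 (standard error 0.360, limma adjusted p = 0.169), and miR-298 with 0.51 (standard error 0.216, limma adjusted p = 0.31). miR-296-3p was detected on 5 arrays, and on the normalized log2 scale every TGF-β array was below every control array, as for 10.1% of the 1457 miRNAs. When the blank spots of each probe's own block of the array were used, a setting chosen after the data were seen, miR-296-3p was called at -1.49 (limma adjusted p = 0.0357). It was called in 1 of 20 alternatives. With the deposited values its difference was -0.60 (adjusted p = 0.732), with a floor of 4 it was -0.08 (adjusted p = 0.828), and with the local background at an offset of 50 it was -0.03 (adjusted p = 0.99). That of miR-298 ran from 0.004, with the local background at an offset of 50, to 0.67, without TGF-β replicate 1. Without TGF-β replicate 3 the difference of miR-298 was 0.30. miR-335-5p, from an intron of MEST, had a difference of 0.24 (standard error 0.127, limma adjusted p = 0.447). Over 21 alternatives it ran from 0.10, without control replicate 1, to 0.46, with the local background at an offset of 0.

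Since miR-483-3p has been described as targeting SMAD4, 7 other miRNAs with such descriptions were set beside it. limma called 0 of 7, compared with 3.98% of the 1457, with differences of -0.27 to 0.21 and a median of -0.12. None had an unadjusted p under 0.05 by limma, compared with 13.9% of the 1457. By the methods' t-test 1 did before and 0 after adjustment, compared with 194 and 17 of all tested miRNAs. miR-421 had the lowest adjusted p of the list, with a difference of -0.22 (standard error 0.101, limma adjusted p = 0.367). On the normalized log2 scale its TGF-β arrays were all below its control arrays, as for 10.1% of the 1457 miRNAs. Its signals overlapped, with TGF-β arrays 2 and 3 at 58.7 and 62.4 units and control 1 at 55.6 units. With the local background its difference was above 0 (0.12 and 0.32 by offset). Also in the list, miR-27a-3p, at 2529 to 3853 units, and miR-130a-3p, at 674 to 976 units, had differences of -0.04 and -0.12. That of miR-27a-3p was above 0 in 7 of 21 alternatives, at 0.30 with median scaling, 0.26 with 75th percentile scaling, 0.27 without normalization, 0.40 with the deposited values, 0.63 and 0.69 with the local background and 0.03 without control replicate 1. That of miR-130a-3p ran from -0.22 to 0.06 over the alternatives and was above 0 with the deposited values. That of miR-146a-5p, -0.14, was above 0 with the local background (0.51 and 0.92 by offset) and below 0 in 19 of 21 alternatives. None of these miRNAs was called in any of the 21. SMAD4 itself was not measured on these arrays.

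**Figure D4:**
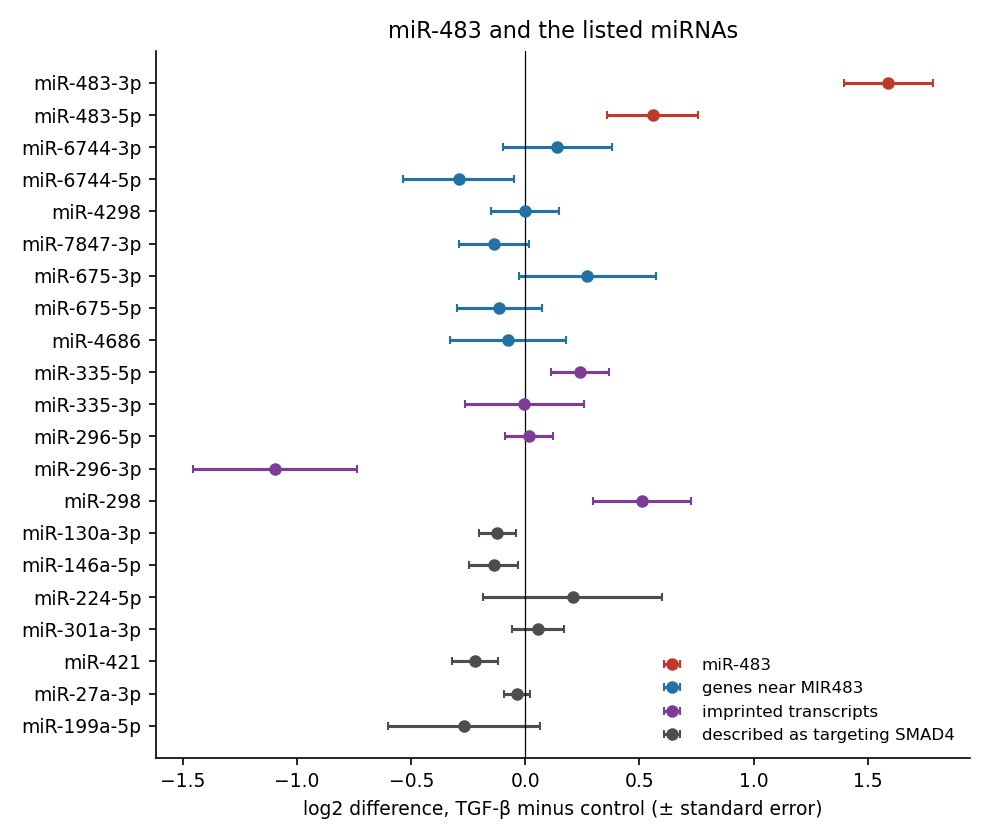
Difference between TGF-β and control cells on the log2 scale, with bars for ± the standard error from limma, for the miR-483 arms and the miRNAs of 3 lists (miR-675 is shown once, with the genes near MIR483). The arms of miR-483 are at 1.59 and 0.56, and the genes near MIR483 lie between -0.29 and 0.27.

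The miRNAs most like each arm were found among the 1280 other miRNAs detected on all 6 arrays, by the mean absolute difference over the 6 arrays between log2 values centred on each miRNA's own mean. For miR-483-3p they were miR-519a-3p (0.141), of the placental cluster on chromosome 19, then miR-181b-3p (0.147), miR-181b-5p (0.168), miR-181a-2-3p (0.187) and miR-2355-3p (0.198). Of these, miR-181b-3p and miR-181b-5p are annotated to the same hairpin, MIR181B1. A second gene of miR-181b-5p, MIR181B2, lies near MIR181A2, the gene of miR-181a-2-3p, on chromosome 9. The 5 are thus not unrelated. They were picked for a profile like that of miR-483-3p on these same arrays. Their difference between the groups therefore follows from the choice and is given without a test. It was 1.44 for miR-519a-3p, which had log2 values of 1.80, 2.41 and 2.85 in the controls and 3.94, 3.67 and 3.78 after TGF-β, and 1.28 to 1.96 for the other 4. With the local background at an offset of 50 the differences of the 5 were 0.02 to 0.23.

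For miR-483-5p the closest were miR-487a-3p (0.119) and miR-496 (0.121), both from chromosome 14, followed by miR-4727-3p (0.132), miR-148a-3p (0.144) and miR-6849-3p (0.148). Their differences, given without a test for the same reason, were 0.64 for miR-487a-3p, 0.54 for miR-496 and 0.34 to 0.53 for the other 3. With the local background at an offset of 50 those of miR-487a-3p and miR-496 were 0.09 and 0.08. Among the control arrays, array 1 was the lowest for miR-483-5p, miR-487a-3p, miR-496 and miR-148a-3p. The arms of miR-483 were not each other's nearest neighbours. Their mean absolute difference was 0.516, and 36 of the 1280 miRNAs were closer to miR-483-3p than miR-483-5p was. That distance follows from the change of the difference between the arms given above, 1.03, and is not a separate result.

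**Figure D5:**
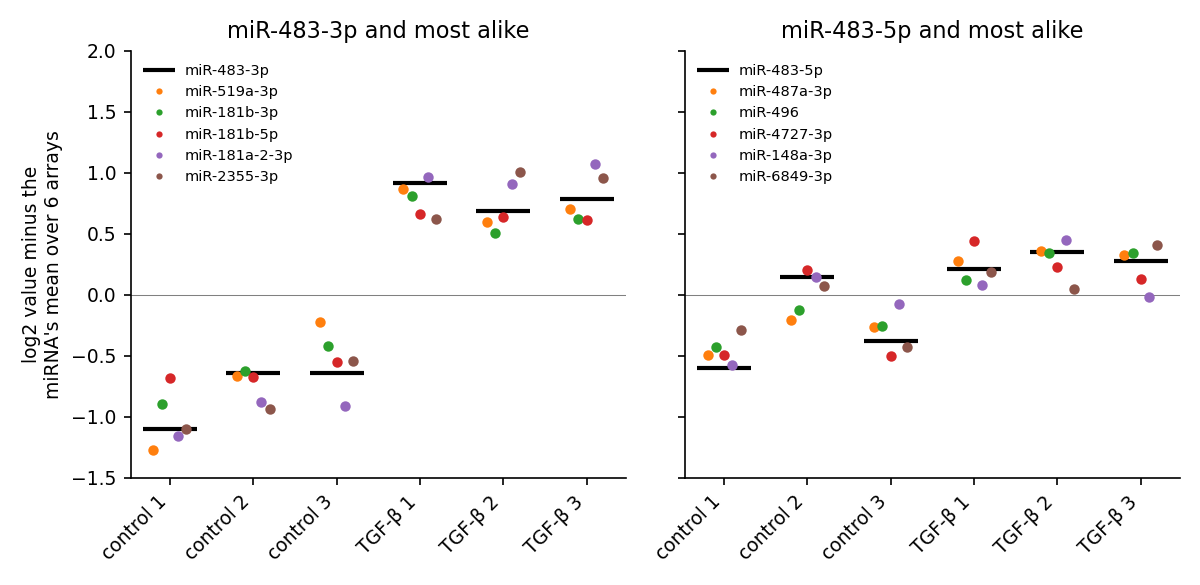
log2 values minus each miRNA's mean over the 6 arrays, for each miR-483 arm (black bars) and the 5 miRNAs most like it (coloured points). The TGF-β arrays of miR-483-3p and of its 5 nearest miRNAs are all above their control arrays, while among those nearest to miR-483-5p some groups overlap.

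The positions of the probes on the array were looked at as well, and their part in the values of miR-483 was not tested. miR-483-3p was in block 5 and miR-483-5p in block 2. Of the 5 spots around miR-483-3p, 4 were tested, with differences of -0.45 to 0.20. An unadjusted p under 0.05 was found for 2 of them by limma, compared with 13.9% of all tested miRNAs. By the methods' t-test it was found for 2, compared with 194 of all tested miRNAs. limma called 1 of the 4, compared with 3.98% of all tested miRNAs. It was miR-484, named after its value was seen, with a difference of -0.35 (adjusted p = 0.0463). Its call was kept in 5 of 21 alternatives and, with an array left out, only without control replicate 1. With the local background its value was above 0 and not called. Of the 8 spots around miR-483-5p, 6 were tested and limma called 0 of them, with differences of -0.48 to 1.08 and with 1 at an unadjusted p under 0.05 by limma and 0 by the methods' t-test. The blank spots of block 5 had means of 18.3, 19.9 and 20.7 units in the controls and 19.5, 19.3 and 20.8 after TGF-β. With the blanks of the own block subtracted, the differences of miR-483-3p and miR-483-5p were 1.63 and 0.52.

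By the array identifiers, the control arrays were on 1 slide and the TGF-β arrays on another, so slide and treatment cannot be told apart for any of these values. The labels do not say that the 3 arrays of a group came from separate cultures, and errors and p-values then measure only the spread between these samples, which may be technical.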

How the data were processed

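The authors deposited the scanner output of 6 1-colour miRNA arrays (3D-Gene, Cy5), which gives, unnormalized and on a linear scale, the median intensity of every spot and of the local background around it. They also deposited a table of processed intensity values. How that table was made is not given in the sources used here, and it was rebuilt from the scanner intensities: 5% of the blank spots were left out at each end, the mean of the rest was subtracted, each array was scaled to a median of 25 over its detected miRNAs, and values not above the detection limit were left empty. Rebuilt and deposited values differed by at most 0.50, as rounding gives, and the same values were missing.

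The analysis used R 4.3.3 with limma 3.58.1, and figures used Python 3.11.15 with matplotlib 3.10.9. The trimmed blank mean was subtracted, 3 scanner-flagged miRNA spots were set as missing, and values under 1 were set to 1. The log2 values of the 2565 miRNA probes were quantile normalized and compared by lmFit and eBayes with an intensity trend with Benjamini-Hochberg adjustment for the 1457 miRNAs above the limit throughout the control group, the TGF-β group or both, and a threshold of 0.05. No p is given for miR-483. Both arms were among the 1457 miRNAs of the fit and so are part of the counts over all tested miRNAs. For single values, an exact permutation test of 3 against 3 arrays cannot go below 0.1 (2-sided). The blank spots were chosen over the local background, the usual choice with limma's normexp, because the latter rises with the spot's own signal. This choice was made with earlier results of these data known, and the differences of miR-483 and the number of calls depend on it. The procedure was tested on simulated data with known answers, where the share of false calls was under the threshold for the smaller change and above it for the larger. The number of arrays limits the precision.

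The members and lists were chosen with earlier results of these data known. Named miRNAs are both arms, 3 lists (miRNA genes within 1 Mb of MIR483, other imprinted transcripts, other miRNAs described as targeting SMAD4), the 5 miRNAs most like each arm, and the cell type markers. Others are said to be named after their values were seen. Lists of miRNAs with the same seed as either arm or closest to it in sequence were not analysed here. RefSeq sequences matched 7 of the 7 neighbours and 9 of the 10 most alike miRNAs. Alternatives covered the background, normalization, floor, deposited values, dim-probe filter, test, replicate number as a block, linear means and each array left out in turn.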

Additional observations from a re-analysis of the deposited data

How the results depend on the processing

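The direction of both miR-483 arms and of their difference was the same in every alternative, while the size depended on the background. With the local background by normexp and an offset of 50, the log2 differences of miR-483-3p, of miR-483-5p and between the arms were 0.037, 0.023 and 0.014. With an offset of 0 they were 0.11, 0.069 and 0.038. Without background correction they were 0.31, 0.13 and 0.18. With a floor of 4, miR-483-3p was at 0.99 and the difference between the arms at 0.41, as that floor lies above the excess of miR-483-3p over the blank spots on every control array. With an array left out, the ranges were 1.44 to 1.67, 0.40 to 0.77 and 0.90 to 1.15. Of all miRNAs, 58 were called by limma. The count was 0 with the local background at either offset (34 at an unadjusted p under 0.05 for each), 35 without normalization (27 higher, 8 lower), 31 with the deposited values (27 higher, 4 lower), 33 with a floor of 4, 19 without the filter on dim probes, 32 without the intensity trend, and 17 after and 194 before adjustment with the methods' t-test. It ran from 25 to 51 with an array left out, being 35 without control replicate 2, 25 without TGF-β replicate 2 and 33 without TGF-β replicate 3. Of the 3 lists, limma called 0 miRNAs, and 1 with the blank spots of the own block, a setting chosen after the data were seen. With each array left out in turn it called 0 of them. The deposited values moved the median difference of all miRNAs to 0.11. miR-1-3p turned to 0.16 and 0.37, and miR-484 to 0.031 and 0.13, with the local background at offsets of 50 and 0. Except where stated, the cause was not tested. Deviations of same-numbered arrays had low correlations, 0.129, 0.111 and -0.0274 over 1282 miRNAs, and the main fit did not pair the arrays. Differently numbered arrays were not computed as a reference, so these values do not show whether samples were handled in pairs. With the replicate block the values were 1.59, 0.56 and 1.03, and 60 miRNAs were called. Signal over background limits the values of miR-483, whose spots stood 2.88 to 16.2 blank SDs above the blank mean.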
